A study of Mus musculus with 12 samples.

Results

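Type I interferon-stimulated antiviral genes were examined in 12 mouse RNA-seq libraries of sorted cells, in 3 groups of 4. The genes were a list of 37 symbols that encode antiviral effectors, nucleic acid sensors and signalling proteins of the interferon response. Rows for 35 of them were found among the 21885 genes of the deposited table, and Mx1 and Mx2 were not analysed here. Of the 35, 34 passed the filter on low values (4 or more libraries at 10 or above) and were tested, and Oas1g was not. The rule for the list names the genes by symbol. It uses no measured value, but the genes were chosen with earlier results of these data known.

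The Pax5 KO group held common lymphoid progenitor and pre-pro-B cells from fetal liver without Pax5, the transcription factor that commits cells to the B lineage. The Pax5 WT libraries came from pro-B and pre-BI cells sorted from fetal liver, in which Pax5 is intact. The P80R B-ALL libraries came from GFP-positive leukaemia cells carrying the PAX5 P80R mutant, 1 library from each of the primary recipients numbered 1300, 1301, 1302 and 1308. Genotype and stage cannot be told apart in any comparison, since each genotype was sorted at its own stage. The labels give no ages, do not name the cells into which the mutant was brought or how, and do not say whether the libraries of a group came from separate animals or whether the leukaemias arose separately. The p-values therefore measure the spread between these libraries only.

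Type I interferons are secreted by cells that detect foreign or misplaced nucleic acid. They bind the receptor chains IFNAR1 and IFNAR2, whose kinases JAK1 and TYK2 phosphorylate STAT proteins. STAT2 and IRF9 are parts of the complex ISGF3, which binds interferon-stimulated response elements in the promoters of its target genes. The products of these genes bind or degrade viral RNA, hinder replication and budding, and in part feed back on the pathway itself.

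The DNA element that ISGF3 binds is shown first, because it was searched for in the promoters of the same genes whose levels follow. RefSeq promoter windows of build GRCm38.p6, from 250 bases before to 50 bases after a transcription start, were matched by symbol for 26 of the 37 genes (29 windows). The core element, GAAA then any 2 bases then GAAA, was searched on both strands. Each stretch below is 60 bases from the region before the start, read 5′ to 3′ on the strand of the gene, with capitals for the core element. Where the element lies on the other strand, the capitals show its reverse complement, and overlapping matches run together.
Isg15, chr4:156200850-156200909, minus strand: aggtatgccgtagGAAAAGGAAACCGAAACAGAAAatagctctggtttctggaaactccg
Ifit1, chr19:34640779-34640838, plus strand: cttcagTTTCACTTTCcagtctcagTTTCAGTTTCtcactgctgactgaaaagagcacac
Ifit3, chr19:34583382-34583441, plus strand: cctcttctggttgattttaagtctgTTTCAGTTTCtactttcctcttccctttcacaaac
Ifit3b, chr19:34607778-34607837, plus strand: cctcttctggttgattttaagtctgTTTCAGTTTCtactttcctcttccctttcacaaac
Oas1a, chr5:120907526-120907585, minus strand: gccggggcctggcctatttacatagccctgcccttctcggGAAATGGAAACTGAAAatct
Oas1g, chr5:120887614-120887673, minus strand: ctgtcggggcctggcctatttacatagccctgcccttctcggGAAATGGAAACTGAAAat
Oas3, chr5:120777700-120777759, minus strand: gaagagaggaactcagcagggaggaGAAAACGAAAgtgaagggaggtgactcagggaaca
Rsad2, chr12:26456538-26456597, minus strand: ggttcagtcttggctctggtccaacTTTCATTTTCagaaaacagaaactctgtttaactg
Stat2, chr10:128270251-128270310, plus strand: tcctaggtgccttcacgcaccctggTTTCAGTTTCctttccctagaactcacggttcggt

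The stretches of Ifit3 and Ifit3b were identical in all 60 letters, and those of Oas1a and Oas1g shared the same pair of overlapping elements next to the start. These are the gene pairs of the list with the most alike transcripts. The core element was present in 12 of the 26 genes (46.2%), against 3.99% of all 27025 genes with a window and 3.44% of all 32851 windows. In Ddx58, Eif2ak2 and Ifih1 it lay after the transcription start and is not printed. The longer form, the core element with CT directly after it, was present in 6 genes (23.1%), namely Ddx58, Ifit1, Ifit3, Ifit3b, Oas1a and Oas1g, against 0.303% of all genes. A match is a description of these letters in this window.

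The values are scaled read counts, the authors' counts divided by 1 factor per library. The Pax5 KO libraries held 36871775 to 43513852 recovered reads, the Pax5 WT libraries 33191950 to 39465256 and the leukaemias 24914250 to 29386256. Pax5 itself was at 229.9 to 267 in Pax5 KO, against 6194 to 7315 in Pax5 WT, and at 255 to 1316 in the leukaemias, so the 8 fetal liver labels matched the level of the gene. None of the 10 B-lineage markers was at 0 throughout a group, and their summed value was 52928 to 54736 in Pax5 KO, against 296100 to 339562 in Pax5 WT, and 112153 to 190338 in the leukaemias. The leukaemias of recipients 1300 and 1308 stood apart in erythroid markers and in granulocyte and monocyte markers, but 1300 did not in every list of other cells. Their summed erythroid markers were 414965 and 1070770, against 38946 in recipient 1301, 32747 in recipient 1302 and at most 266 in the fetal liver libraries. Leukaemia results are therefore also given without 1300 and 1308. In bulk samples, fewer cells of a type and less RNA per cell cannot be told apart.

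**Figure D1:**
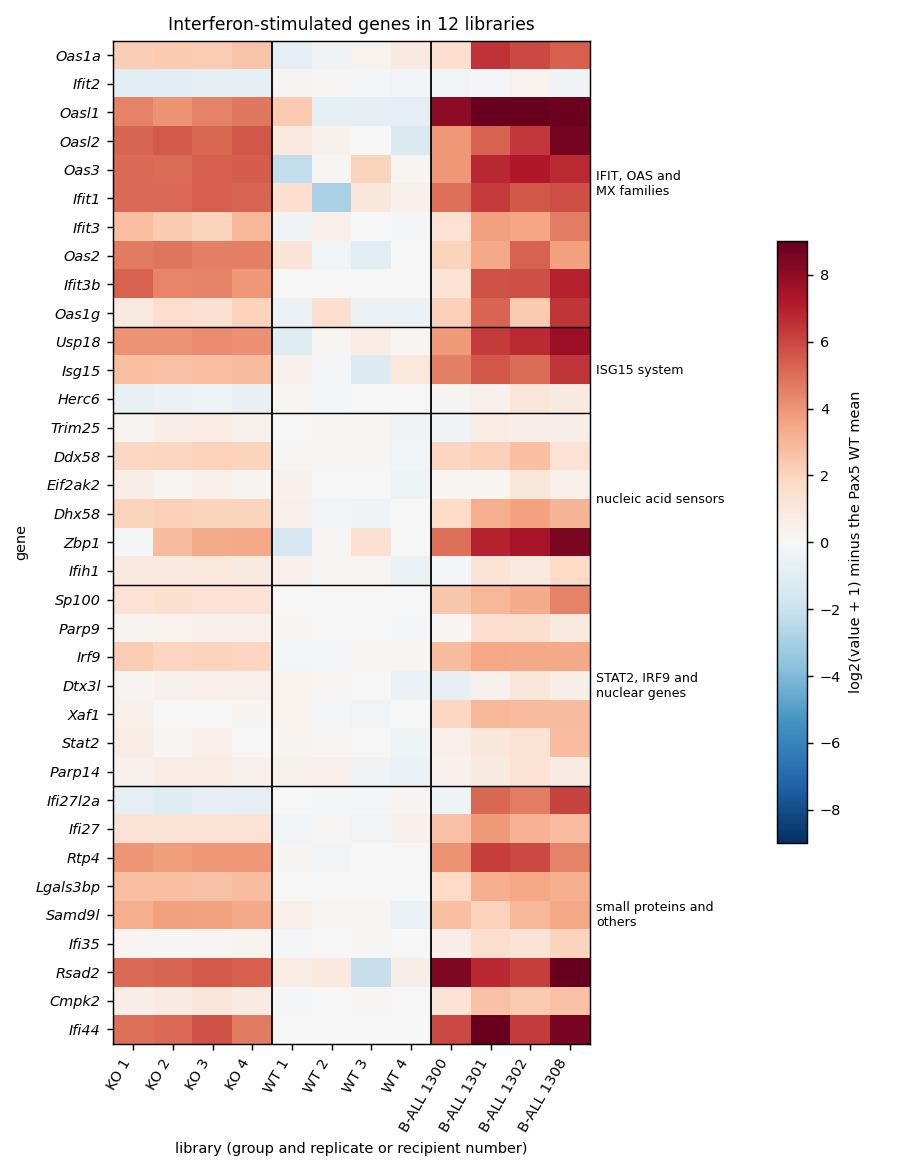
Level of 35 interferon-stimulated genes (rows, grouped by role) in the 12 libraries (columns), as log2 of the scaled read count plus 1 minus the mean of that quantity in Pax5 WT. Red is above and blue below the Pax5 WT mean, with the colour scale ending at 9 in either direction. Most rows are red in Pax5 KO and in the leukaemias, and the column of recipient 1300 is paler than those of the other recipients in most rows.

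The summed reads of the 35 genes made up 1067 to 1126 CPM (reads per library scaled to the same total) in Pax5 KO, against 396 to 510.0 in Pax5 WT, and 1066, 2444, 2515 and 3013 in recipients 1300, 1301, 1302 and 1308. Recipient 1300 was thus at the level of Pax5 KO and the other leukaemias above it. Of the 35 genes, 23 had a value of at least 10 in every library. Ifit3b, Ifi44, Oas1g, Oasl1, Rsad2 and Zbp1 were under 10 in every Pax5 WT library, and Ifit3b and Ifi44 had no read there.

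The genes were compared with limma on log2 of the value plus 1, fitted over all 12200 genes that passed the filter and on the libraries of the groups compared. A difference is called higher or lower where the Benjamini-Hochberg adjusted p is under 0.05. All differences below are on this log2 scale with their standard error (SE), and the 3 comparisons share groups, so they are not independent of each other.

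In Pax5 KO, 27 of the 34 tested genes were higher than in Pax5 WT and 3 were lower. The median difference was 2.04, and was the same with Ifit3b and Ifi44 set to their lower bounds. Over all tested genes, 35.7% were higher and 29.1% lower (64.8% called in all), with a median difference of 0.062. Every Pax5 KO library lay above every Pax5 WT library for 24 of the 35 genes and below for 3, where 32.4% and 26.7% of all tested genes did so. The lower genes, Ifit2, Herc6 and Ifi27l2a, belong to 3 different roles.

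In P80R B-ALL, 29 of the 34 were higher than in Pax5 WT and 0 lower, with a median of 3.18. At an unadjusted p under 0.05, limma gave 30 higher and 0 lower, and edgeR and DESeq2 also called 0 lower. Over all tested genes, 21.0% were higher and 18.9% lower (39.9% in all), with a median of -0.0036. The 5 genes not called were Ifit2, Ifih1, Dtx3l, Eif2ak2 and Trim25. All leukaemias lay above every Pax5 WT library for 28 of the 35 genes and below for 0, where 21.2% and 19.4% of all tested genes did so. Leaving out 1 library at a time, the count of 29 ranged from 25 (without Pax5 WT library 3 or 4) to 31 (without recipient 1300).

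Against Pax5 KO, 16 of the 34 were higher in P80R B-ALL and 0 lower, with a median of 1.00. At an unadjusted p under 0.05, limma gave 20 higher and 1 lower, and edgeR and DESeq2 called 0 lower. Over all tested genes, 17.6% were higher and 20.8% lower (38.4% in all), with a median of -0.11. This balance of directions, 2151 higher and 2532 lower, moved to 2283 and 2285 in limma with TMM scaling, to 2519 and 1833 in edgeR and to 2947 and 2188 in DESeq2. All leukaemias lay above every Pax5 KO library for 16 of the 35 genes and below for 0, where 19.5% and 22.9% of all tested genes did so. The count of 16 calls depended on the libraries used. It was 24 without recipient 1300, 25 with 1 lower (Samd9l) without recipients 1300 and 1308, and 12 without any 1 of the Pax5 KO libraries. Ifi44, Rsad2, Usp18 and Rtp4 were the genes no longer called in the last case.

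**Figure D2:**
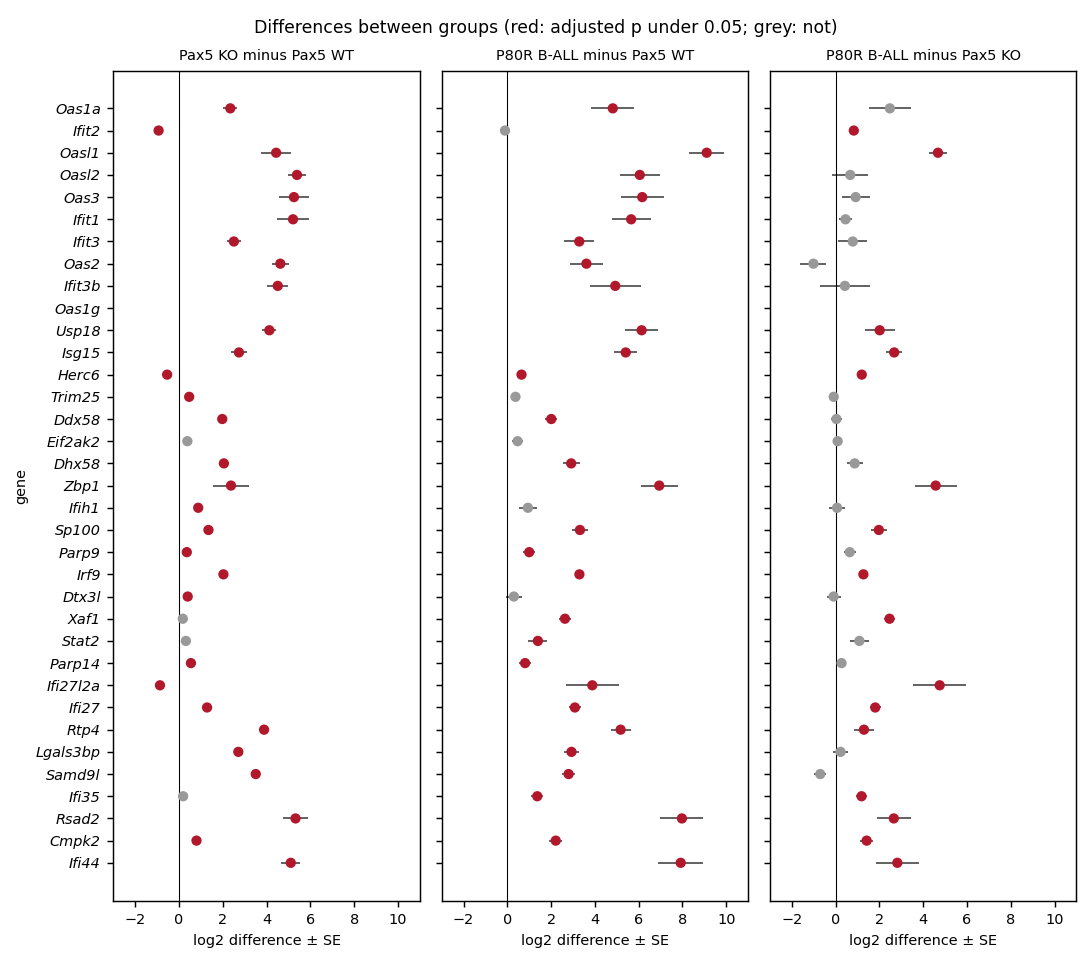
Differences between groups for each tested gene, in log2 units with bars of 1 standard error, in the order of roles used in the text; Oas1g was not tested and has no point. Red points have an adjusted p under 0.05 and grey points do not. Points in the first and middle panels lie mostly right of 0, with Ifit2, Ifi27l2a and Herc6 left of 0 in Pax5 KO. The bars are wider for many genes where the leukaemias enter. Exceptions include Ifit1 and Oasl1, whose bars are narrower for P80R B-ALL minus Pax5 KO than for Pax5 KO minus Pax5 WT.

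The IFIT and OAS families are the effectors of the list that act on RNA: IFIT proteins bind foreign RNA and block its translation, and OAS enzymes make 2′-5′ oligoadenylate, which activates RNase L. Of 9 tested, 8 were higher in Pax5 KO cells than in Pax5 WT and 1 was lower. The same 8 were higher in the leukaemias than in Pax5 WT, and 2 were higher in the leukaemias than in Pax5 KO. For this and the later roles, the shares of all tested genes called higher were 35.7%, 21.0% and 17.6% in these comparisons, in that order. In the first comparison 29.1% were lower. The 2 of 9 is near the 17.6%. Oas2 (ENSMUSG00000032690) was at 237, 265, 214 and 216 in Pax5 KO, at 19.8, 7.00, 3.95 and 8.60 in Pax5 WT and at 36.8, 101, 368 and 123 in recipients 1300, 1301, 1302 and 1308 (always in this order below). The Pax5 KO libraries were all above the Pax5 WT libraries, and only recipient 1302 of the leukaemias reached above Pax5 KO. The difference was 4.63 ± 0.38 SE, adjusted p = 4.66e-07 for Pax5 KO against Pax5 WT, and for P80R B-ALL against Pax5 KO it was -1.02 ± 0.60 SE, adjusted p = 0.204. Oas2 was called lower there (log2 difference -1.58) when recipient 1302 was left out.

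Oasl2 (ENSMUSG00000029561), an OAS-like protein, was at 260.4, 309.8, 243 and 321 in Pax5 KO, 11.3, 8.00, 5.93 and 1.72 in Pax5 WT and 103, 273, 546 and 2596 in the leukaemias. Pax5 KO was 42-fold above Pax5 WT by the means (5.39 ± 0.41 SE, adjusted p = 2.29e-07). Recipient 1308 was far above the other leukaemias, recipient 1300 below every Pax5 KO library, and the leukaemias overlapped Pax5 KO (0.66 ± 0.82 SE, adjusted p = 0.548). Oasl1 (ENSMUSG00000041827), known in the mouse as a translational inhibitor of IRF7, was at 37.3, 27.1, 36.9 and 44.8 in Pax5 KO, 7.56, 0, 0 and 0 in Pax5 WT and 448, 1621, 1428 and 759.7 in the leukaemias. Its groups did not overlap, with each leukaemia above every Pax5 KO library and each of those above Pax5 WT. The difference between P80R B-ALL and Pax5 KO was 4.67 ± 0.43 SE, adjusted p = 0.000211, and that between Pax5 KO and Pax5 WT 4.43 ± 0.67 SE, adjusted p = 0.00011.

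Ifit3b (ENSMUSG00000062488) was at 38.1, 20.5, 20.6 and 13.7 in Pax5 KO, had no read in Pax5 WT and was at 1.31, 52.9, 54.6 and 123 in the leukaemias. It was at least 8.16-fold higher in Pax5 KO cells than in Pax5 WT, and at least 20.4-fold higher in P80R B-ALL by the means, with a floor of 3 reads per library for Pax5 WT. Without recipient 1308 the latter was at least 12.7-fold, and recipient 1300 by itself was below the floor. Recipient 1300 was below every Pax5 KO library and the others above, so that P80R B-ALL and Pax5 KO overlapped (0.42 ± 1.13 SE, adjusted p = 0.793). Transcripts of Ifit3b share 44.5% of their 50-base stretches with Ifit3, and Ifit3 shares 51.2% with Ifit3b, so their reads may have been divided between them or left out, and both values are uncertain. The same holds for Oas1a, which shares 57.6% with Oas1g, and Oas1g, which shares 54.1% with Oas1a. Ifit3 had means (± SD, n = 4) of 71.4 ± 20.6 in Pax5 KO, 11.7 ± 3.20 in Pax5 WT and 159 ± 111 in P80R B-ALL.

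Ifit1, Oas1a and Oas3 were higher than Pax5 WT in both other groups, with log2 differences of 5.21, 2.34 and 5.25 in Pax5 KO and 5.66, 4.82 and 6.16 in P80R B-ALL. Their leukaemia values spanned 229 to 596, 94.7 to 3011 and 71.0 to 696, with recipient 1300 lowest in each, and none of the differences from Pax5 KO was called (adjusted p = 0.248, 0.0671 and 0.289). All 3 were called higher there without recipient 1300, and in all libraries Oas1a was called in edgeR and DESeq2 and Oas3 in DESeq2. Oas1g was at 1.52 to 5.06 in Pax5 KO and 0 to 3.00 in Pax5 WT, and at 5.26, 51.7, 6.20 and 120.4 in the leukaemias.

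Ifit2 (ENSMUSG00000045932) went the other way, and its values are given because they were seen to do so. It was at 576, 597, 670.3 and 629.9 in Pax5 KO, 1371, 1267, 1106 and 1020.1 in Pax5 WT and 974, 1051, 1507 and 935 in the leukaemias. Every Pax5 KO library was below every Pax5 WT library (-0.94 ± 0.10 SE, adjusted p = 6.15e-06), while the leukaemias overlapped Pax5 WT (-0.11 ± 0.19 SE, adjusted p = 0.674) and were above Pax5 KO (0.83 ± 0.18 SE, adjusted p = 0.00749). Ifit2 is thus the IFIT gene with the highest level in Pax5 WT, also per kilobase of exon (exon lengths of an older annotation), at 303 against 6.69 for Ifit3 and 4.07 for Ifit1.

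The ISG15 system attaches and removes a ubiquitin-like tag: ISG15 is the tag, HERC6 a ligase that attaches it in the mouse, and USP18 the protease that removes it and also restrains signalling at the receptor. Isg15 and Usp18 were higher and Herc6 lower in Pax5 KO than in Pax5 WT, and all 3 were higher in the leukaemias than in either fetal liver group. Isg15 (ENSMUSG00000035692) was at 189.6, 187, 196 and 219 in Pax5 KO, 37.8, 26.0, 11.9 and 57.6 in Pax5 WT and 692, 1464, 974 and 2596 in the leukaemias. The 3 groups did not overlap, and the lowest leukaemia was again recipient 1300. Isg15 differed by 2.73 ± 0.38 SE, adjusted p = 4.83e-05 between Pax5 KO and Pax5 WT, and by 2.67 ± 0.36 SE, adjusted p = 0.00105 between P80R B-ALL and Pax5 KO.

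Usp18 (ENSMUSG00000030107) was at 301, 301, 346 and 321 in Pax5 KO, 7.56, 20.0, 28.7 and 19.8 in Pax5 WT and 262, 1403, 1953 and 3752 in the leukaemias. Recipient 1300 was below every Pax5 KO library and the other recipients were well above. The difference of P80R B-ALL from Pax5 KO was 2.01 ± 0.69 SE, adjusted p = 0.0457, and it was not called without recipient 1301, 1302 or 1308 or any 1 Pax5 KO library. Herc6 (ENSMUSG00000029798) was at 317, 359.9, 399 and 324 in Pax5 KO, 545, 470.2, 522 and 503 in Pax5 WT and 619, 679, 1061 and 904 in the leukaemias, an order with Pax5 KO lowest and no overlap between groups. Its differences were -0.55 ± 0.11 SE, adjusted p = 0.000684 for Pax5 KO against Pax5 WT and 1.19 ± 0.21 SE, adjusted p = 0.0032 for P80R B-ALL against Pax5 KO. Against Pax5 WT the leukaemias were higher (0.64 ± 0.20 SE, adjusted p = 0.0308), a call lost without recipient 1302 or 1308 or any 1 Pax5 WT library. Of the stretches of Herc6 transcripts, 23.8% are shared with the overlapping gene model Gm45193.

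The nucleic acid sensors start the response that the other genes carry out. Ddx58 encodes RIG-I and Ifih1 MDA5, Dhx58 encodes the related LGP2, Zbp1 binds Z-form nucleic acid and triggers cell death, Eif2ak2 encodes the kinase PKR, and Trim25 the ligase that acts on RIG-I. In Pax5 KO, 5 of the 6 were higher than in Pax5 WT, where 35.7% of all tested genes were. In the leukaemias, 3 were higher than in Pax5 WT, where 21.0% of all tested genes were. Only Zbp1 was higher there than in Pax5 KO, and this 1 of 6 is near the 17.6% of all tested genes. Ddx58 (ENSMUSG00000040296) was at 1246, 1319.8, 1453 and 1383 in Pax5 KO, 363, 368, 361 and 287 in Pax5 WT and 1316, 1489, 2217 and 833 in the leukaemias. Pax5 KO was 3.92-fold above Pax5 WT by the means (1.97 ± 0.10 SE, adjusted p = 6.54e-09), and the leukaemias lay on both sides of Pax5 KO (0.03 ± 0.26 SE, adjusted p = 0.933). Dhx58 (ENSMUSG00000017830) was at 512, 556, 515 and 521 in Pax5 KO, 174, 108, 104 and 132 in Pax5 WT and 417, 1259, 1539.5 and 1056 in the leukaemias. It was called in Pax5 KO (2.05 ± 0.16 SE, adjusted p = 3.12e-07) and not between P80R B-ALL and Pax5 KO (0.87 ± 0.36 SE, adjusted p = 0.0855), where it was called without recipient 1300 and, with all libraries, in edgeR and DESeq2.

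Zbp1 (ENSMUSG00000027514) was at 1.52, 18.9, 26.6 and 28.2 in Pax5 KO, 0, 2.00, 5.93 and 1.72 in Pax5 WT and 84.1, 325, 479 and 962 in the leukaemias. All leukaemias were far above both fetal liver groups (6.94 ± 0.84 SE, adjusted p = 0.000291 against Pax5 WT, and 4.57 ± 0.96 SE, adjusted p = 0.00663 against Pax5 KO). Library 1 of Pax5 KO was within the Pax5 WT range, and the difference between these groups (2.37 ± 0.83 SE, adjusted p = 0.0249) was not called in the fit to all 12 libraries or without Pax5 KO library 2, 3 or 4 or Pax5 WT library 1. Ifih1 and Trim25 were higher in Pax5 KO by 0.87 and 0.46, smaller differences than those of Ddx58 and Dhx58, and neither was called in the fit to all 12 libraries. The remaining sensor, Eif2ak2, was not called in any comparison (log2 differences 0.38, 0.47 and 0.09), but was called higher in Pax5 KO without Pax5 WT library 1 (0.51).

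STAT2 and IRF9 are the parts of ISGF3 that are themselves on the list. IRF9 supplies its DNA contact, and STAT2 its activating domain. Irf9 (ENSMUSG00000002325) was at 1465, 1181, 1202 and 1154 in Pax5 KO, 279, 279, 326 and 341 in Pax5 WT and 2172, 3458, 3322 and 3224 in the leukaemias, with no overlap between groups. Its differences were 2.02 ± 0.11 SE, adjusted p = 9.97e-09 for Pax5 KO against Pax5 WT and 1.27 ± 0.17 SE, adjusted p = 0.00111 for P80R B-ALL against Pax5 KO. Stat2 had means of 502 ± 102 in Pax5 KO, 405 ± 76.1 in Pax5 WT and 1278 ± 1011 in P80R B-ALL. It was not called in Pax5 KO (adjusted p = 0.125) and was higher in P80R B-ALL than in Pax5 WT (1.39 ± 0.43 SE, adjusted p = 0.0289), a call lost without any 1 Pax5 WT library. Without recipient 1308 the Stat2 difference was 0.93. Against Pax5 KO it was not called by limma, but was called higher in P80R B-ALL in edgeR, in DESeq2, in the fit to all 12 libraries and without recipient 1300.

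Sp100 (ENSMUSG00000026222), a component of PML nuclear bodies, was at 1392, 1517, 1378 and 1401 in Pax5 KO, 553, 568, 552 and 569 in Pax5 WT and 3069, 4546, 5611 and 12424 in the leukaemias. The groups were in that order without overlap, 1.34 ± 0.07 SE, adjusted p = 8.33e-09 for Pax5 KO against Pax5 WT and 1.97 ± 0.36 SE, adjusted p = 0.00376 for P80R B-ALL against Pax5 KO. Xaf1 (ENSMUSG00000040483), a binder of the apoptosis inhibitor XIAP, was at 312, 237, 246 and 287 in Pax5 KO, 295, 218, 204 and 250.3 in Pax5 WT and 874, 1906, 1713 and 1709 in the leukaemias. The fetal liver groups overlapped (0.17 ± 0.15 SE, adjusted p = 0.337), and the leukaemias were above both (2.46 ± 0.26 SE, adjusted p = 0.000354 against Pax5 KO). Xaf1 and Ifi35, described below, were the genes called in both leukaemia comparisons and not between the fetal liver groups.

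PARP9 and DTX3L form a complex that joins ADP-ribosylation to ubiquitination, and PARP14 is a related ADP-ribosyltransferase. Parp9, Parp14 and Dtx3l were higher in Pax5 KO cells than in Pax5 WT by 0.35, 0.54 and 0.39, and Parp9 and Parp14 were higher in P80R B-ALL than in Pax5 WT by 1.00 and 0.81. None of these 3 was called by limma between P80R B-ALL and Pax5 KO, although Parp9 was called higher there in edgeR, in DESeq2, in the fit to all 12 libraries and without recipient 1300. In the fit to all 12 libraries none of the 3 was called between Pax5 KO and Pax5 WT. Leaving out single libraries ended the Parp14 calls against Pax5 WT in Pax5 KO (Pax5 KO library 1, 2 or 3, Pax5 WT library 3 or 4) and in P80R B-ALL (recipient 1301, 1302 or 1308, Pax5 WT library 3 or 4), and the Dtx3l call (any 1 Pax5 KO library or Pax5 WT library 3). Without Pax5 WT library 4, the lowest of its group for both, the Parp14 and Dtx3l differences in Pax5 KO were 0.36 and 0.21. Exons of Parp9 and Dtx3l overlap on opposite strands over 458 bases, 9.40% of Parp9 and 8.00% of Dtx3l, and the library kit does not mark strand, so part of their reads cannot be told apart.

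The last 9 genes encode small interferon-inducible proteins and others. Of these, 7 were higher and 1 lower in Pax5 KO than in Pax5 WT, all 9 were higher in P80R B-ALL than in Pax5 WT, and 7 were higher in P80R B-ALL than in Pax5 KO. Rsad2 (ENSMUSG00000020641) encodes viperin, which makes a chain-terminating nucleotide from CTP. It was at 148, 164, 190.3 and 178 in Pax5 KO, 5.67, 7.00, 0 and 5.16 in Pax5 WT and 1473, 477, 319 and 5848 in the leukaemias. No groups overlapped, and the leukaemias fell into a high pair, 1300 and 1308, and a lower pair, 1301 and 1302. Rsad2 differed by 5.32 ± 0.57 SE, adjusted p = 5.24e-06 between Pax5 KO and Pax5 WT and by 2.66 ± 0.79 SE, adjusted p = 0.0277 between P80R B-ALL and Pax5 KO. The latter was not called without recipient 1300 or without any 1 Pax5 KO library, and was 1.20 without recipients 1300 and 1308 together.

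Cmpk2 (ENSMUSG00000020638), a mitochondrial nucleotide kinase whose gene neighbours Rsad2, was at 447, 486, 601 and 489 in Pax5 KO, 251, 294, 312 and 304 in Pax5 WT and 677, 1784, 1505 and 1784 in the leukaemias. Its groups were in the same order as those of Rsad2 without overlap, with smaller differences (0.79 ± 0.12 SE, adjusted p = 0.000103 for Pax5 KO against Pax5 WT, and 1.42 ± 0.31 SE, adjusted p = 0.00741 for P80R B-ALL against Pax5 KO). Ifi44 (ENSMUSG00000028037), an interferon-induced cytoplasmic protein, was at 29.7, 32.9, 51.4 and 24.6 in Pax5 KO, had no read in Pax5 WT and was at 60.5, 1896, 76.9 and 376 in the leukaemias. With the same floor of 3 reads per library it was at least 12.2-fold higher in Pax5 KO and at least 212-fold higher in P80R B-ALL than in Pax5 WT by the means, the latter carried by recipient 1301 and at least 60.2-fold without it. Between P80R B-ALL and Pax5 KO it just passed the threshold (2.82 ± 0.99 SE, adjusted p = 0.0499) and was not called without recipient 1301 (log2 difference 1.83) or 1308 or any 1 Pax5 KO library.

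Ifi27l2a (ENSMUSG00000079017), a small hydrophobic protein of the ISG12 family, was at 261, 222, 273 and 257 in Pax5 KO, 451, 428, 437 and 549 in Pax5 WT and 358, 16815, 11228 and 32222 in the leukaemias. Pax5 KO was below Pax5 WT without overlap (-0.88 ± 0.12 SE, adjusted p = 4.06e-05), a call lost in the fit to all 12 libraries (adjusted p = 0.547). Recipients 1301, 1302 and 1308 were far above both, and recipient 1300 was between them. P80R B-ALL was higher than Pax5 KO (4.75 ± 1.20 SE, adjusted p = 0.0151) and than Pax5 WT (3.88 ± 1.20 SE, adjusted p = 0.0308), the latter not without recipient 1301, 1302 or 1308 or any 1 Pax5 WT library. Per kilobase of exon, Ifi27l2a had the highest mean of the 35 genes in Pax5 WT (1007) and in P80R B-ALL (32734). Ifi27 (ENSMUSG00000064215), of the same family, was at 1781, 1677, 1734 and 1779 in Pax5 KO, 604, 786, 607 and 922 in Pax5 WT and 4437, 10376, 6172 and 4867 in the leukaemias. Its groups did not overlap, with Pax5 KO above Pax5 WT (1.28 ± 0.12 SE, adjusted p = 2.39e-06) and P80R B-ALL above Pax5 KO (1.81 ± 0.24 SE, adjusted p = 0.00101).

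Rtp4 (ENSMUSG00000033355), a chaperone that helps bring receptors to the cell surface, was at 1632, 1376, 1509 and 1533 in Pax5 KO, 119, 85.0, 105 and 99.8 in Pax5 WT and 1722, 7793, 6203 and 2245 in the leukaemias. Pax5 KO was 14.8-fold above Pax5 WT by the means (3.88 ± 0.12 SE, adjusted p = 7.32e-11), and P80R B-ALL above Pax5 KO without overlap (1.29 ± 0.45 SE, adjusted p = 0.049). The latter call was lost without recipient 1301 or 1302 or any 1 Pax5 KO library, and the difference was 2.20 without recipients 1300 and 1308. Lgals3bp (ENSMUSG00000033880), a secreted glycoprotein that binds galectins, was at 3463, 3533, 3377 and 3603 in Pax5 KO, 519.8, 556, 552 and 512 in Pax5 WT and 1843, 5081, 5854 and 5037 in the leukaemias. It had the smallest adjusted p of the list between the fetal liver groups (2.71 ± 0.06 SE, adjusted p = 8.12e-12), and recipient 1300 was the leukaemia below Pax5 KO (0.22 ± 0.33 SE, adjusted p = 0.618, called higher without recipient 1300).

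Samd9l (ENSMUSG00000047735), a restraint on protein synthesis and proliferation in blood cells, was at 5506, 7390.2, 6997 and 6126 in Pax5 KO, 765, 604, 608 and 374 in Pax5 WT and 3643, 2355, 4580.1 and 6274 in the leukaemias. Pax5 KO was 11.1-fold above Pax5 WT by the means (3.50 ± 0.18 SE, adjusted p = 6.64e-09). The leukaemias were above Pax5 WT (2.80 ± 0.31 SE, adjusted p = 0.00019), while 3 of them were below every Pax5 KO library and recipient 1308 was within their range (-0.71 ± 0.27 SE, adjusted p = 0.0675, called lower without recipient 1308). Ifi35, which binds the transcription regulator NMI, had means of 978 ± 78.7 in Pax5 KO, 861 ± 69.4 in Pax5 WT and 2351 ± 901 in P80R B-ALL. It was not called between the fetal liver groups (adjusted p = 0.0854) and was higher in P80R B-ALL than in Pax5 KO (1.18 ± 0.26 SE, adjusted p = 0.00872). Of its exon bases, 16.8% overlap Gm11626 on the opposite strand.

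Of the 11 tested genes with a core element in the promoter window, 9 were higher in Pax5 KO cells than in Pax5 WT, 9 in P80R B-ALL than in Pax5 WT and 2 (Isg15 and Rsad2) in P80R B-ALL than in Pax5 KO. Of the 14 tested genes with a window that did not hold it, 10 were higher and 2 lower in the first comparison, 11 higher in the second and 9 higher in the last. Over all tested genes, 35.7% were higher and 29.1% lower in the first comparison, 21.0% higher in the second and 17.6% higher in the last. The 2 of 11 with the element in the last comparison is near that share. Medians were 2.50, 4.82 and 0.78 with the element and 1.07, 2.71 and 1.19 without. The sequences printed above belong to genes of unlike behaviour: Oas3 had a log2 difference of 5.25 and Stat2, whose difference was not called, 0.31 between Pax5 KO and Pax5 WT.

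The 4 leukaemias differed among themselves more than the fetal liver libraries did. The median standard deviation of the log2 value over the 34 tested genes was 0.15 in Pax5 KO, 0.32 in Pax5 WT and 0.81 in P80R B-ALL, where it was 0.11, 0.16 and 0.47 over all tested genes. Recipient 1300 had the lowest value of the 4 leukaemias in 31 of the 35 genes and the highest in 0, where it was lowest in 26.5% of all tested genes. The exceptions were Ifit2 and Ddx58, lowest in recipient 1308, Rsad2, lowest in 1302, and Samd9l, lowest in 1301. The highest value was in recipient 1308 for 14 genes, in 1301 for 11 and in 1302 for 10, where 31.5%, 23.2% and 23.9% of all tested genes had it there. With 1 library per recipient, these orders have no replicate check.

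Against the fetal liver libraries, recipient 1300 was above every Pax5 WT library for 28 of the 35 genes, and recipients 1301, 1302 and 1308 for 33, 35 and 34, where 42.4%, 41.3%, 39.6% and 44.8% of all tested genes were. Recipient 1300 was above every Pax5 KO library for 16 genes and below every one for another 16, near the 39.9% and 47.2% of all tested genes. The other recipients, in order, were above every Pax5 KO library for 30, 32 and 30 genes and below for 2 (Oas2 and Samd9l), 1 (Samd9l) and 2 (Oas2 and Ddx58), where 38.7%, 37% and 44.1% of all tested genes were above and 49.8%, 44.5% and 44.6% below. The median over the 35 genes of the log2 difference from the Pax5 KO mean was -0.035 in recipient 1300 and 1.26, 1.18 and 1.50 in the others. The genes for which 1300 was below Pax5 KO included Ifit1, Ifit3, Ifit3b, Oas1a, Oas2, Oas3 and Oasl2, which is all tested IFIT and OAS genes but Ifit2 and Oasl1.

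**Figure D3:**
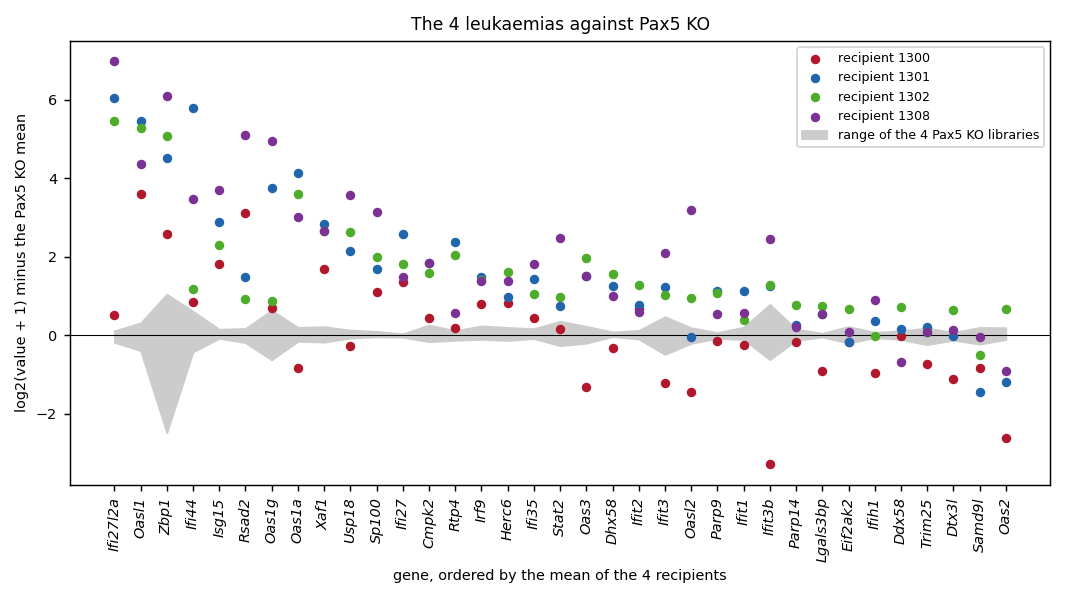
Log2 of the value plus 1 in each leukaemia minus the Pax5 KO mean (vertical axis) for the 35 genes (horizontal axis), ordered by the mean of the 4 recipients, with the range of the Pax5 KO libraries in grey. Recipient 1300 (red) lies lowest in 31 of the 35 genes and on both sides of the grey band, and the other recipients lie above the band for 30 to 32 genes.

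Markers of cells other than B-lineage cells also differed between libraries, some lists in the order of the interferon-stimulated genes and others not, and their part in the results was not tested. The 7 early lymphoid progenitor markers summed to 48871 to 52481 in Pax5 KO and 19492 to 21278 in Pax5 WT. They summed to 152625, 108013, 60323 and 142290 in recipients 1300, 1301, 1302 and 1308. Of these markers, Flt3 and Cd34 were lower in every leukaemia than in every Pax5 KO library. The 13 granulocyte and monocyte markers summed to 9552 to 10335 in Pax5 KO and 573 to 821 in Pax5 WT, where 8 of them, Elane, Ms4a3, S100a8, S100a9, Ltf, Camp, Ngp and Fcnb, were at 0. In recipients 1300, 1301, 1302 and 1308 the sums were 169808, 13855, 5028 and 280717. The 12 macrophage markers summed to 2101 to 2407 in Pax5 KO and 171 to 262 in Pax5 WT, with 8 at 0 in Pax5 WT, and to 3697, 5593, 4646 and 30328 in the leukaemias. In Pax5 KO, Csf1r and Mrc1 made up most of the sum. There, 7 of the 12 had a mean under 10, and C1qc, Vsig4, Timd4 and Cd5l were at 0. The 10 markers of NK and innate lymphoid cells summed to 9348 to 10329 in Pax5 KO and 670.3 to 980 in Pax5 WT, where Ncr1, Gzma, Gzmb and Eomes were at 0, and to 9327, 4676, 11009 and 33243 in the leukaemias. Klrd1, Id2 and Nkg7 made up nearly all of the Pax5 KO sum, and Ncr1, Gzmb, Eomes and Tbx21 had means under 10 in Pax5 KO too. Sums of T-lineage markers were 461 to 522, 68.0 to 135 and 1519 to 7596 in the same groups. Those of hepatocyte markers were 483 to 569, 25.8 to 42.5 and 11038 to 22942. Alb, Apoa1, Ttr and Serpina1a were at 0 in all libraries, and Trf alone made up nearly all of the leukaemia sums. Trf was at 20845, 22910, 12111 and 10927 in recipients 1300, 1301, 1302 and 1308. Among these recipients Afp reached at most 83.0 and Apoa2 at most 29.5. The granulocyte and monocyte sum of recipient 1302 was below every Pax5 KO library. Its sums of macrophage, NK and innate lymphoid, T-lineage, erythroid and interferon-stimulated genes were above every one of them.

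Plasmacytoid dendritic cells, which make much type I interferon and express its target genes, had 12 markers. Their sum was 22646 to 24598 in Pax5 KO and 24254 to 25470 in Pax5 WT, where Siglech, Klk1 and Cd300c were at 0. Klk1 was at 0 in Pax5 KO too. Siglech, a receptor that defines these cells in the mouse, was at 1166 to 1224 in Pax5 KO. Tcf4, Spib and Irf8, which B-lineage cells also express, made up most of the sum in Pax5 WT, and Irf8 and Bst2 are also counted among the pathway genes below. In recipients 1300, 1301, 1302 and 1308 the sum was 21372, 16624, 21257 and 287634, and Siglech was at 101, 52.9, 325 and 26551.

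Recipient 1308 had the highest sum in each of these lists except 2. In hepatocyte markers Trf made it lowest of the leukaemias, and in early lymphoid progenitor markers recipient 1300 was highest. Recipient 1308 also had the highest summed value of the interferon-stimulated genes, 112433. Recipient 1300, with the next highest granulocyte and erythroid sums, had the lowest of the leukaemias, 34909. Recipients 1301 and 1302 were at 88369 and 81538, with plasmacytoid dendritic sums no higher than those of Pax5 KO. Without recipients 1300 and 1308, 31 of the 34 tested genes were higher than in Pax5 WT and 25 higher than in Pax5 KO. Without 1308 alone, 26 were higher than in Pax5 WT, and 14 were higher and 1 lower than in Pax5 KO. Without 1300 alone the counts were 31 and 24, so the larger counts go with leaving out 1300.

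**Figure D4:**
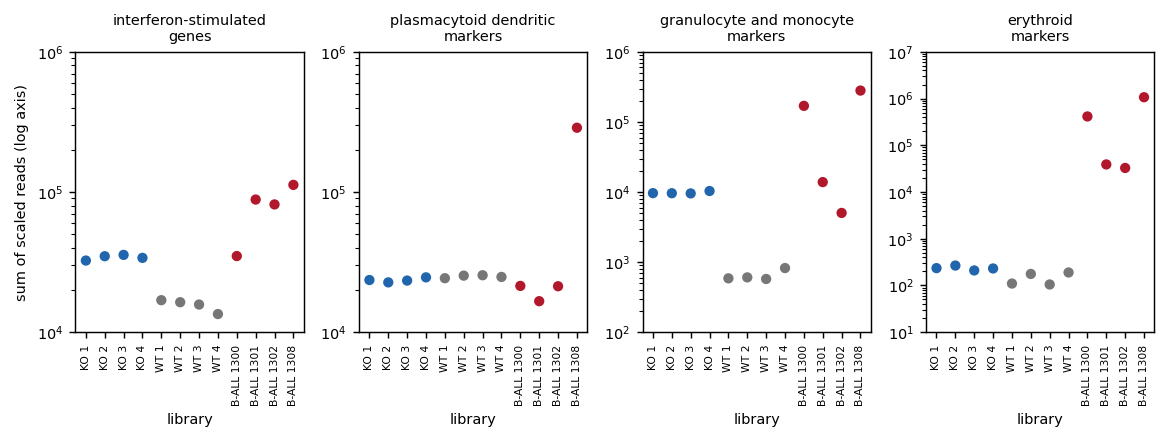
Summed scaled reads per library (log axes) of the 35 interferon-stimulated genes and of markers of plasmacytoid dendritic cells, granulocytes and monocytes, and erythroid cells, with Pax5 KO in blue, Pax5 WT in grey and P80R B-ALL in red. Recipient 1308 is highest in all 4 panels, and recipient 1300 is second in the granulocyte and erythroid panels but lowest of the leukaemias in the panel of interferon-stimulated genes.

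Other genes of the pathway were counted from lists. To set beside these counts, 35.7% of all tested genes were higher and 29.1% lower in Pax5 KO than in Pax5 WT. In P80R B-ALL the shares were 21.0% and 18.9% against Pax5 WT, and 17.6% and 20.8% against Pax5 KO. The interferon genes themselves were near the limit of detection: all 18 listed had a row, 11 were at 0 in every library and 0 reached the filter. Apart from Ifng, the type II interferon, which had up to 45 reads in a library, none had more than 4 reads in any library. That maximum was Ifnb1, the gene of interferon β, in recipient 1308. Interferon made by cells that were not sorted is not measured here.

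Of the 10 receptor and JAK-STAT genes tested and reported, 7 were higher and 0 lower in Pax5 KO than in Pax5 WT, 2 were higher in P80R B-ALL than in Pax5 WT, and 2 were higher and 2 lower than in Pax5 KO. The leukaemia counts against Pax5 KO were near the shares of all tested genes, 17.6% higher and 20.8% lower. The higher count against Pax5 WT was near its share too, 21.0%. The receptor chain Ifnar2 was higher in Pax5 KO cells than in Pax5 WT (1.39 ± 0.07 SE, adjusted p = 4.82e-09), and Ifnar1 and the kinase Tyk2 were lower in P80R B-ALL than in Pax5 KO (-0.86 and -0.93). Ifngr1, a chain of the receptor for interferon γ, was higher in P80R B-ALL than in Pax5 KO by 1.46.

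Among 6 interferon regulatory factors, Irf1 and Irf7 were higher and Irf2, Irf5 and Irf8 lower in Pax5 KO than in Pax5 WT. Irf1, Irf3 and Irf7 were higher in P80R B-ALL than in Pax5 WT, and Irf1 and Irf3 than in Pax5 KO. Irf7, the factor that amplifies interferon production and is itself a target of the pathway, was at 748, 745, 726 and 744 in Pax5 KO, 33.1, 53.0, 26.7 and 15.5 in Pax5 WT and 463, 2184, 2248 and 6692 in the leukaemias. Its pattern resembled that of the list, with Pax5 KO above Pax5 WT (4.61 ± 0.29 SE, adjusted p = 3.79e-08), recipient 1300 below every Pax5 KO library and the other recipients above, and no call between P80R B-ALL and Pax5 KO (1.41 ± 0.66 SE, adjusted p = 0.122).

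Of 18 tested genes of nucleic acid sensing and its adaptors, 11 were higher and 2 lower in Pax5 KO than in Pax5 WT, 6 higher and 1 lower in P80R B-ALL than in Pax5 WT, and 2 higher and 5 lower in P80R B-ALL than in Pax5 KO. Tlr7, the endosomal receptor for single-stranded RNA, was at 1833, 2099.6, 1941 and 1887 in Pax5 KO, 13.2, 35.0, 3.95 and 21.5 in Pax5 WT and 1114, 2044, 1939 and 3899.8 in the leukaemias (6.97 ± 0.46 SE, adjusted p = 6.37e-08 for Pax5 KO against Pax5 WT). Cgas, the sensor of cytosolic DNA, and Sting1, its downstream adaptor, were higher in Pax5 KO cells than in Pax5 WT by 4.21 and 2.39. They were higher in P80R B-ALL than in Pax5 WT by 3.72 and 1.79, and lower than in Pax5 KO by log2 differences of -0.49 and -0.60. Tlr4, which is counted in this list but is not a nucleic acid sensor, was lower in Pax5 KO than in Pax5 WT (-3.43). It was also 1 of the 2 genes higher in P80R B-ALL than in Pax5 KO. Of 8 negative regulators, 6 were higher and 1 lower in Pax5 KO than in Pax5 WT, with Socs1, an inhibitor of JAK kinases, higher by 2.08. In P80R B-ALL 4 were higher than in Pax5 WT and 1, Isg20, which encodes an RNA exonuclease and is an effector rather than a regulator, higher than in Pax5 KO (2.38).

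**Figure D5:**
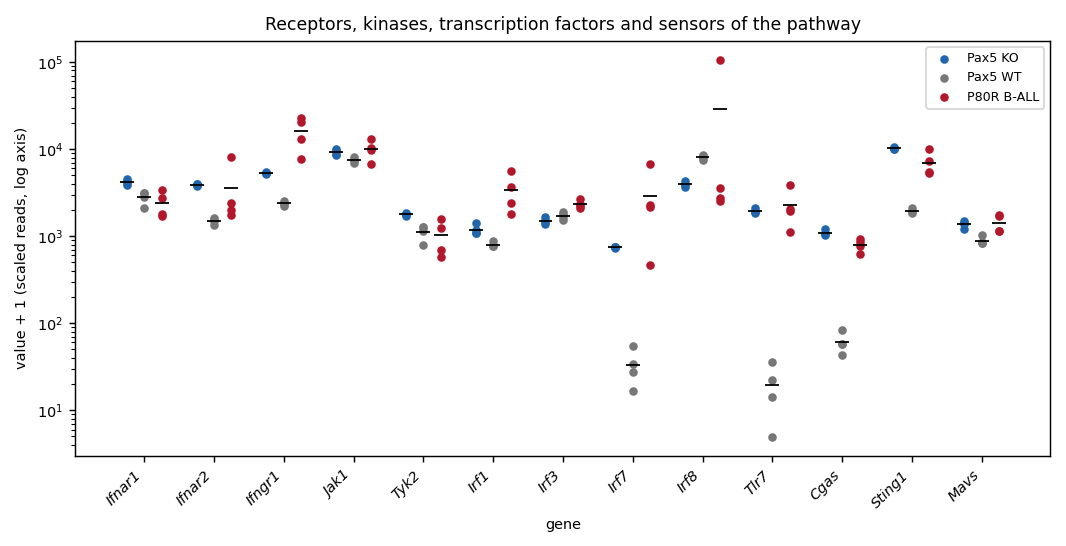
Scaled read count plus 1 (log axis) of 13 genes of the pathway that are not on the list of 37, with 1 point per library and a black line at the mean of the 4 libraries of a group. Irf7, Tlr7 and Cgas have every Pax5 WT library far below the other groups, and Irf8 has 1 leukaemia, recipient 1308, far above the rest.

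Further interferon-stimulated genes outside the list, 40 of them tested, were 27 higher and 8 lower in Pax5 KO than in Pax5 WT. In P80R B-ALL 23 were higher and 1 lower than in Pax5 WT, and 14 were higher and 2 lower than in Pax5 KO. Ifitm1, a membrane protein that blocks virus entry, was at 63680.4, 61562, 61622 and 66244 in Pax5 KO, 6672, 6772, 7123 and 8403 in Pax5 WT and 536, 26950.3, 5824 and 4005 in the leukaemias. It was higher in Pax5 KO cells than in Pax5 WT (3.13 ± 0.07 SE, adjusted p = 6.84e-12) and lower in P80R B-ALL than in Pax5 KO (-3.88 ± 0.96 SE, adjusted p = 0.0139), with recipient 1300 lowest. Ube2l6, the enzyme that conjugates ISG15 and hands it to ligases, was at 398, 467, 519 and 530.2 in Pax5 KO, 1696, 1802, 1675 and 2086 in Pax5 WT and 5434, 5536, 2420.3 and 17188 in the leukaemias. Its order, Pax5 KO below Pax5 WT (-1.92 ± 0.11 SE, adjusted p = 1.48e-08) and the leukaemias above both (3.64 ± 0.49 SE, adjusted p = 0.00106 against Pax5 KO), was also that of Herc6, the ligase of the same system. Of the 4 tested relatives of the IFIT and HERC families outside the list, Ifit1bl1 and Herc3 were lower in Pax5 KO than in Pax5 WT, and Ifit1bl1 and Ifit1bl2 were higher in P80R B-ALL than in Pax5 KO.

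The genes that passed the threshold in all 3 comparisons were 13: Isg15, Ifi44, Ifi27, Ifi27l2a, Oasl1, Rsad2, Usp18, Rtp4, Irf9, Zbp1, Cmpk2, Herc6 and Sp100. In 11 of them Pax5 WT was lowest and P80R B-ALL highest, and in Ifi27l2a and Herc6 Pax5 KO was lowest. Isg15, Ifi27, Oasl1, Irf9, Cmpk2 and Sp100 kept their calls under every alternative. Leaving out single libraries ended the calls of Ifi44, Rsad2, Usp18 and Rtp4 in P80R B-ALL against Pax5 KO. It also ended those of Ifi27l2a and Herc6 in P80R B-ALL against Pax5 WT, and of Zbp1 in Pax5 KO against Pax5 WT. At the other end, Eif2ak2 passed the threshold in none of the 3. Among the genes that were higher in Pax5 KO cells than in Pax5 WT, those with no call between P80R B-ALL and Pax5 KO were most of the IFIT and OAS genes, the RNA sensors, the genes of the PARP9 complex, Samd9l and Lgals3bp. For many of them this rested on recipient 1300: without it, Ifit1, Ifit3, Ifit3b, Oas1a, Oas3, Dhx58, Parp9 and Lgals3bp were called higher in P80R B-ALL than in Pax5 KO.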

How the data were processed

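The 12 libraries were prepared from sorted mouse cells with the SMART-Seq v4 kit for full-length cDNA, per the labels' protocols, and this kit leaves strand unmarked. Build mm39, fastp, STAR 2.7.8a and featureCounts are named per the submitters' processing notes. Not given in the sources used here were the annotation, the strand setting and the rule for reads with several matches. The signal values as deposited were scaled read counts: 100% of positive values were whole multiples of 1 step per library (within 0.001), between 0.722 and 1.38, which shows that the authors scaled each library by a single factor. Whole reads were recovered from the steps and used for depths, shares, floors and count tests.

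Symbols (21780 of 21885 identifiers matched), exon lengths and transcripts came from GENCODE M21 and promoter windows from RefSeq. The 12200 genes that reached 10 in 4 or more libraries were tested with limma 3.58.1 in R 4.3.3 (trend and robust options, two-sided) on log2 of the value plus 1, over the 8 libraries compared, with Benjamini-Hochberg adjustment over all of them and a threshold of 0.05. The procedure was tested on simulated data with the groups' own spread, in which 200 of the 12200 genes were changed. There it recovered most 4-fold changes, and 12.3% of calls were false for Pax5 KO against Pax5 WT. For P80R B-ALL, 25.7% were false against Pax5 WT and 29.6% against Pax5 KO, and most 2-fold changes were missed. A far larger share of genes was called in the data, so these shares cannot be carried over to them. Adjusted p-values near the threshold may be less firm than they read. Alternatives were a fit to all 12 libraries, a pseudocount of 10, no filter, a minimum of 50, limma without its trend and robust options, TMM scaling, edgeR 4.0.16 and DESeq2 1.42.0 on recovered reads, a replicate block and leaving out libraries. Leaving out recipients 1300 and 1308 together was chosen after seeing the data.

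The 37 genes, their roles and the pathway and marker lists were chosen with earlier results of these data known. Values per library are given for the 3 genes of each role with the smallest adjusted p, for genes called in all 3 comparisons, and for a few others such as Ifit2 chosen after their values were seen. Of each pathway list, up to 4 called genes with the smallest adjusted p are named. Of the receptor and JAK-STAT list, 1 gene is not reported here. Folds against a group at 0 use a floor of 3 reads per library, which covers counting error only.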

Additional observations from a re-analysis of the deposited data

Results flagged for a closer look

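Of 98 groups of 4 libraries checked, 1 library stood apart from the other libraries of its group in 3, where chance alone marks about 1 in 20 groups. Ddx58 in Pax5 WT library 4 was low, at 287, where the others were at 361 to 368. Irf9 in Pax5 KO library 1 was high, at 1465, where the others were at 1154 to 1202. Sp100 in Pax5 KO library 2 was high, at 1517, where the others were at 1378 to 1401. Ddx58, Irf9 and Sp100 were called higher in Pax5 KO cells than in Pax5 WT without each of these libraries too.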

How the results depend on the processing

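Over all single genes and alternatives, 1617 values kept their direction and their side of the threshold, 86 lost the call, 45 gained one and 17 changed sign. Under every alternative run, 21 to 29 genes of the list were called higher in Pax5 KO cells than in Pax5 WT. With all 12 libraries in 1 fit, 2449 genes of the whole table were higher and 1744 lower in Pax5 KO against Pax5 WT, where the 8 libraries gave 4352 and 3549, and 1 gene of the list, Samd9l, was lower in P80R B-ALL than in Pax5 KO. That fit ended the calls of Ifi27l2a, Ifih1, Zbp1, Parp9, Parp14, Dtx3l and Trim25 between Pax5 KO and Pax5 WT. No filter, and limma without its trend and robust options, each ended those of Zbp1, Parp14 and Dtx3l there, of Parp14 in P80R B-ALL against Pax5 WT, and of Ifi44, Usp18 and Rtp4 in P80R B-ALL against Pax5 KO. In P80R B-ALL against Pax5 WT, 25 to 31 genes of the list were higher over all alternatives. Leaving out 1 library at a time, 0 to 1 genes of the list were lower in P80R B-ALL than in Pax5 KO, 12 to 24 were higher, and the whole table had 1596 (without Pax5 KO library 3) to 2954 lower, where all 8 gave 2532. Without recipients 1300 and 1308 the list had 25 higher and 1 lower. TMM scaling changed no call on the list. Some uncalled differences of P80R B-ALL from Pax5 KO changed sign. Leaving out 1 library at a time, they ranged from -0.34 to 0.25 for Dtx3l, -0.19 to 0.13 for Trim25, -0.20 to 0.28 for Ddx58, -0.22 to 0.41 for Ifih1, -0.10 to 0.18 for Eif2ak2, -0.25 to 1.66 for Ifit3b and -0.18 to 1.37 for Oasl2. In edgeR and DESeq2, Dtx3l was at 0.097 and 0.11 and Trim25 at 0.016 and 0.034, and without recipients 1300 and 1308 they were at 0.31 and 0.15. Against Pax5 WT, Ifit2 was at 0.089 without these recipients. The cause was not tested. Deviations of same-numbered Pax5 KO and Pax5 WT libraries from their group means had weak correlations (0.0049 to 0.062), and 3 of 8 libraries correlated best with their own number. With 4 libraries per group, this cannot settle whether the numbers pair them. With the replicate block 29 genes of the list were higher and 3 lower in Pax5 KO, and 28 and 3 with TMM scaling added, with Eif2ak2 gained in both and Stat2 in the first.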
